A study of Rattus norvegicus with 12 samples.

Results

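The 6 genes studied here carry the output of the circadian clock in rat liver: Dbp, Tef, Hlf, Nfil3, Noct and Bhlhe40. The members were chosen by gene symbol. Every probe set that the array's annotation maps to one of the symbols alone was taken, with Ccrn4l counted as Noct and Bhlhb2 as Bhlhe40. That gave 11 probe sets for 6 of the 14217 genes that the array names: 4 for Hlf, 3 for Tef and 1 each for Dbp, Nfil3, Noct and Bhlhe40. Liver RNA of 12 rats was hybridised to 1-colour Affymetrix arrays, 1 array per animal and 3 animals per group. Germ-free rats, kept without microbes, were of the Sprague Dawley strain (animals 1, 3 and 4), as were the conventional rats (6, 7 and 8). The other groups were Han Wistar rats given antibiotics (13, 14 and 15) and untreated Han Wistar rats (1, 2 and 3). The antibiotic drink held streptomycin and penicillin and was freely available for 8 days. The concentrations given, of 4 mg/ml for streptomycin and 2 mg/ml for penicillin, may refer to a concentrated stock or to the drink, which the label's wording does not settle. The labels give no age, sex, diet or hour of tissue collection for any group. All 6 genes follow the time of day in liver, so a difference in sampling hour and a difference in microbial state cannot be told apart in any result below. Each comparison stays within a strain, and Sprague Dawley and Han Wistar animals were not tested against each other.

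Dbp, Tef and Hlf form the PAR bZIP family, leucine zipper transcription factors with a region rich in proline and acidic residues. They activate genes through a DNA element called the D-box. Nfil3 is a leucine zipper repressor that competes for the same element and, in mouse liver, peaks at roughly the opposite time of day. In mouse, Dbp transcription is driven by the Clock and Bmal1 proteins through E-box elements, and the repressors Per, Cry and Bhlhe40 act on that step. Nfil3 is instead held down by Nr1d1 and Nr1d2. Noct, or nocturnin, is an enzyme related to mRNA deadenylases that removes a phosphate from NADP cofactors, and its transcript is strongly rhythmic in mouse liver. Through these factors the clock times liver detoxification and lipid handling.

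The stretch around each gene's start, from 250 bases before it to 50 after, was available for 5 of the 6 members in the RefSeq table for GRCr8; that of Hlf was not analysed here. These windows were searched on both strands for the E-box CACGTG and for the D-box forms TTATGTAA and TTACGTAA. The 3 genes that differed in germ-free livers (Dbp, Tef and Noct) are printed with Bhlhe40, the only other member window with a match. Capitals mark an E-box, and the array values carry no genome build of their own.
Dbp (chr1:105312006-105312305, plus strand): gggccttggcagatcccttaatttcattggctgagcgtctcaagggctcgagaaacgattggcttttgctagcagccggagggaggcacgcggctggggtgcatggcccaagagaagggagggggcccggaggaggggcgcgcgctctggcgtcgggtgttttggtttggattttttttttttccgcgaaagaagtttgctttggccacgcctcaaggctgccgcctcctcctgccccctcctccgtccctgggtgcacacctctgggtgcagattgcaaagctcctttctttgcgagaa
Tef (chr7:115206577-115206876, plus strand): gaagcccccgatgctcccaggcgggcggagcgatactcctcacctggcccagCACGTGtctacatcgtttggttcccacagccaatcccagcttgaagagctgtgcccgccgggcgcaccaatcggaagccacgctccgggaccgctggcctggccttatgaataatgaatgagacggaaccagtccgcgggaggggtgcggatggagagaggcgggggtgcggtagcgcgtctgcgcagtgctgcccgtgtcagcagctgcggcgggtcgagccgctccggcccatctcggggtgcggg
Noct (chr2:137421824-137422123, plus strand): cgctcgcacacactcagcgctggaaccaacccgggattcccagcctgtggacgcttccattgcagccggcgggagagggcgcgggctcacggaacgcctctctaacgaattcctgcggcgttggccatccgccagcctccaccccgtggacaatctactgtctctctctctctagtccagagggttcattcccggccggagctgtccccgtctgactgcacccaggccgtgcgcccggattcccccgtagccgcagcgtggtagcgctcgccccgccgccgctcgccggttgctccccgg
Bhlhe40 (chr4:143174200-143174499, plus strand): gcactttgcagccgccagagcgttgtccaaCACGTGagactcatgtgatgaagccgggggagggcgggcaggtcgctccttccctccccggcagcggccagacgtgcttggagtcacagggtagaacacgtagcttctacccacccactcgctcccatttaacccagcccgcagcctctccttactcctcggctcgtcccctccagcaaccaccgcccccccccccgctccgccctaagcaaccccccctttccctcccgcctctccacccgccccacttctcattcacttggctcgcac
The Tef window held 1 E-box, whose first base lay at -198 from the start, and the Bhlhe40 window held 1 at -220. Neither motif was found in the windows of Dbp, Noct and Nfil3, which says only that these letters are not in these 300 bases. Among all 27457 windows of this length, 6.65% held the E-box and 1.01% a D-box form. A match is a sequence of letters and not a measured binding site.

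In germ-free livers Dbp, Tef and Noct rose, while Hlf, Nfil3 and Bhlhe40 did not pass the test. Values are MAS5 signals, a linear brightness per probe set, and a probe set was tested if its mean over the 12 arrays reached the array-wide median of 19.67. Of the 11 member probe sets 9 were tested, and 4 of these rose and 0 fell at an adjusted p under 0.05 (limma, over 15523 probe sets). Over all probe sets tested 12.2% were called, 6.86% higher and 5.39% lower (1065 probe sets higher and 836 lower, or 811 and 1061 after median centring). At an unadjusted p under 0.05 there were 6 of the 9, against 27.6% of all. The median log2 change of the 9 was 0.60, against 0.054 over all probe sets tested. Hlf gave 3 of these 9 values and Tef 2, from the same arrays. Changes are of log2(signal + 16), which understates the change of dim probe sets, and each is given with its standard error.

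**Figure D1:**
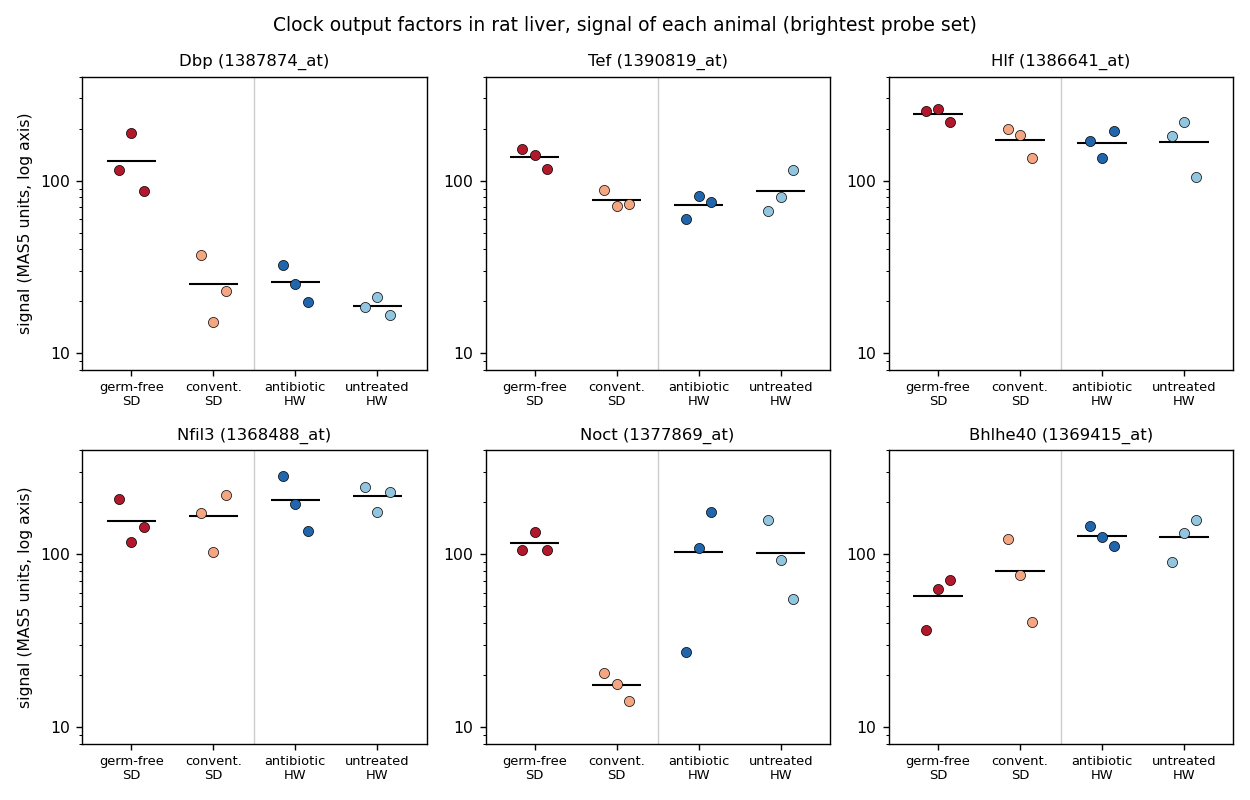
Signal of each of the 12 livers (log axis, MAS5 units) for the brightest probe set of each gene, with bars at the group means and a grey line between the strains (SD, Sprague Dawley; HW, Han Wistar). For Dbp the 3 germ-free livers, at 87.7 to 188.1, lie above the 9 others, and for Noct the 3 conventional livers, at 14.2 to 20.7, lie below the 9 others.

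Dbp, the best known D-box activator of liver, showed a clear separation. Its signal (probe set 1387874_at) was 115.6, 188.1 and 87.7 in germ-free livers, against 37.1, 15.3 and 23.1 in conventional livers. The lowest germ-free liver was well above the highest conventional one. The means were 130.0 ± 51.8 and 25.2 ± 11.0 (SD, n = 3 each), a ratio of 5.18, and the log2 change was 1.81 ± 0.23 (95% interval 1.30 to 2.31, limma adjusted p = 0.000298). The conventional signal lay close to the filter value of 19.67, so the size depends on the offset: 2.34 with an offset of 1 and 1.10 with 64. The call was kept in all 24 alternatives run for it.

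Tef, which binds the same element, rose in both tested probe sets. Probe set 1385374_at read 120.8, 136.6 and 110.7 in germ-free livers, against 43.3, 42.1 and 54.6 in conventional livers. The groups did not overlap, and germ-free livers were 2.63 times as bright (log2 1.15 ± 0.15, limma adjusted p = 0.000361; 0.75 with an offset of 64). The brighter probe set 1390819_at read 152.8, 141.5 and 116.6 in germ-free livers, against 88.4, 70.9 and 73.0 in conventional livers, again without overlap. Its log2 change was smaller, at 0.71 ± 0.17 (limma adjusted p = 0.0148). Leaving out germ-free animal 3 (limma adjusted p = 0.0586) or conventional animal 7 (0.0544) took it past the threshold of 0.05. The third probe set, 1369919_at, lay under the filter with 19.4, 34.2 and 22.6 in germ-free livers, against 9.6, 6.6 and 6.4 in conventional livers. With no filter its log2 change was 0.80 ± 0.16 (limma adjusted p = 0.012).

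**Figure D2:**
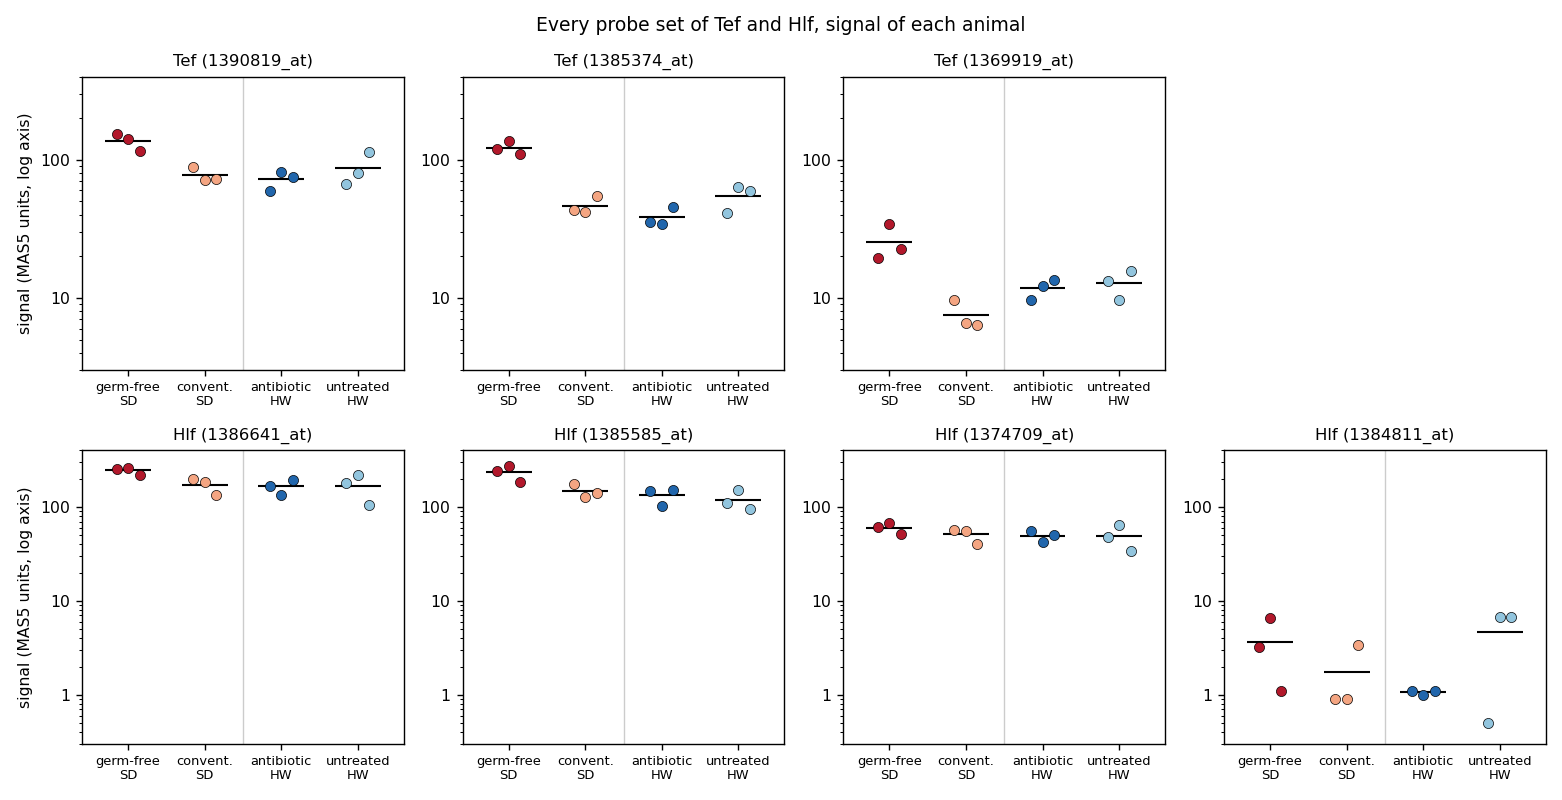
Signal of each liver (log axis, MAS5 units) for the 3 probe sets of Tef (upper row) and the 4 of Hlf (lower row), with bars at the group means. Germ-free livers lie above the 9 others in all 3 Tef probe sets and in the 2 brightest of Hlf. The lowest germ-free liver is barely above the highest untreated Han Wistar liver in Tef 1390819_at (116.6 against 114.9) and Hlf 1386641_at (218.7 against 217.9). This order across strains was not tested. The dimmest Hlf probe set stays between 0.5 and 6.7.

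Hlf, the remaining activator, had higher values in germ-free livers without passing the test. Probe set 1386641_at read 254.3, 261.3 and 218.7 in germ-free livers, against 198.6, 184.0 and 135.1 in conventional livers. Probe set 1385585_at read 241.5, 274.9 and 183.8 in germ-free livers, against 176.2, 127.3 and 140.5 in conventional livers. In both, every germ-free liver was above every conventional one. Their log2 changes were 0.48 ± 0.21 (limma adjusted p = 0.157) and 0.60 ± 0.19 (0.0582), and that of 1385585_at was under 0.05 in 6 of 23 alternatives. The dimmer probe set 1374709_at read 61.8, 67.2 and 52.1 in germ-free livers, against 57.1, 55.4 and 40.5 in conventional livers, which overlapped (log2 0.19, 95% interval -0.18 to 0.57). The fourth, 1384811_at, read 3.2, 6.6 and 1.1 in germ-free livers, against 0.9, 0.9 and 3.4 in conventional livers. These values overlapped far under the filter and say little about the transcript. In all, 6 of the 9 tested probe sets had groups that did not overlap, each of them higher in germ-free livers. Of all probe sets tested 16.9% did so in that direction and 29.1% in either. The 6 are of only 4 genes, so they are not separate measurements.

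Nfil3, the repressor of D-box genes, read 208.5, 117.5 and 144.2 in germ-free livers, against 173.1, 103.4 and 221.7 in conventional livers. The groups overlapped over nearly their whole range. The log2 change was -0.05, with a 95% interval from -0.64 to 0.53, so a change of up to 0.53 upward or 0.64 downward lies within it. Bhlhe40, a repressor that binds E-boxes, read 36.5, 63.5 and 71.6 in germ-free livers, against 123.5, 75.6 and 40.6 in conventional livers. These groups overlapped as well (log2 -0.33, 95% interval -0.93 to 0.28, limma adjusted p = 0.484). The Bhlhe40 value rests on single animals, being -0.01 without conventional animal 6, -0.11 without germ-free animal 1 and -0.66 without conventional animal 8, and it was -0.69 with the 3' to 5' beta-actin signal ratio, a measure of RNA quality, as a covariate.

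Noct had the highest log2 change of the 9. Its signal (1377869_at) was 106.3, 135.4 and 105.6 in germ-free livers, against 20.7, 17.7 and 14.2 in conventional livers. The means were 116.0 ± 17.0 and 17.5 ± 3.25 (SD, n = 3 each), a ratio of 6.60. The log2 change was 1.97 ± 0.41 (95% interval 1.08 to 2.86, limma adjusted p = 0.00707), and it was 2.66 with an offset of 1 and 1.14 with 64. Its conventional signal lay under the filter value of 19.67 in 2 of 3 animals. The pooled spread behind that error came largely from the Han Wistar livers, where Noct varied from 27.4 to 175.3. Fitted on the Sprague Dawley arrays alone, the adjusted p was 8.19e-05 (limma), with the same log2 change. With the beta-actin ratio as a covariate, the call was lost at a similar size (1.90, limma adjusted p = 0.0535).

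**Figure D3:**
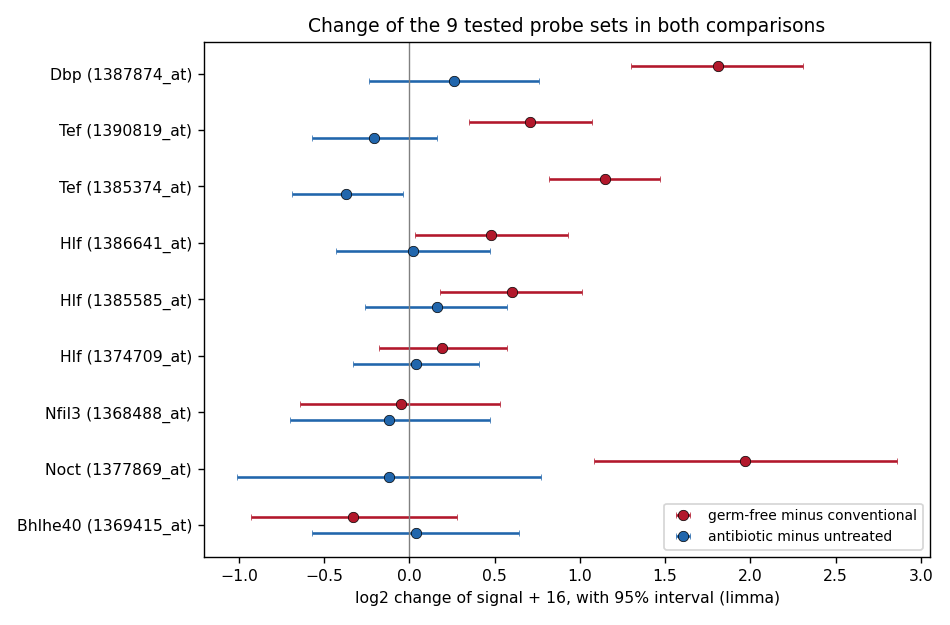
Log2 change of signal + 16 with its 95% interval (limma) for the 9 tested probe sets, germ-free minus conventional in red and antibiotic minus untreated in blue. The intervals of Dbp, both Tef probe sets and Noct lie above 0.3 in the germ-free comparison, and in the antibiotic comparison 8 of 9 intervals include 0.

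In antibiotic-treated livers no member passed. Of the 9 tested probe sets 0 were called by limma, where 0.0193% of all probe sets were (0.00644% higher and 0.0129% lower). At an unadjusted p under 0.05 there was 1 of the 9, against 9.97% of all, and 0 of the 9 had groups that did not overlap, against 18.4%. Dbp read 32.7, 25.3 and 19.9 in antibiotic-treated livers, against 18.5, 21.3 and 16.6 in untreated livers (log2 0.26, 95% interval -0.24 to 0.76). Tef probe set 1385374_at, the one under an unadjusted 0.05, read 35.5, 34.2 and 45.5 in antibiotic-treated livers, against 40.9, 63.9 and 59.1 in untreated livers. Its log2 value was -0.37 ± 0.15 (limma adjusted p = 0.44), opposite in sign to the germ-free comparison, and the groups overlapped. Probe set 1390819_at read 59.9, 81.2 and 75.5 in antibiotic-treated livers, against 66.6, 80.0 and 114.9 in untreated livers (log2 -0.21, 95% interval -0.57 to 0.16). That value was -0.02 without untreated animal 3, -0.10 without antibiotic animal 13 and -0.35 without untreated animal 1. The dim 1369919_at read 9.6, 12.2 and 13.4 in antibiotic-treated livers, against 13.3, 9.6 and 15.8 in untreated livers. In all 3 the highest untreated liver was above every antibiotic-treated liver.

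Noct was the most variable tested member in Han Wistar livers. It read 27.4, 109.3 and 175.3 in antibiotic-treated livers, against 157.7, 92.4 and 55.0 in untreated livers. The ranges overlapped and the log2 value was -0.12, with a wide 95% interval from -1.01 to 0.77. Without antibiotic animal 13 it was 0.49, and without untreated animal 1 it was 0.21. All 6 of these livers were above the 3 conventional Sprague Dawley livers, so that the conventional group was lowest of the 4 for Noct.

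For Hlf the untreated livers varied more than the antibiotic-treated ones. Probe set 1386641_at read 169.0, 134.9 and 193.1 in antibiotic-treated livers, against 180.7, 217.9 and 105.6 in untreated livers. Probe set 1385585_at read 148.5, 101.6 and 152.4 in antibiotic-treated livers, against 110.3, 152.3 and 94.7 in untreated livers. Probe set 1374709_at read 55.2, 42.3 and 50.7 in antibiotic-treated livers, against 48.4, 63.7 and 33.7 in untreated livers. All 3 overlapped, with untreated animal 3 the lowest of the 6 each time. The dim 1384811_at read 1.1, 1.0 and 1.1 in antibiotic-treated livers, against 0.5, 6.7 and 6.7 in untreated livers. The 3 Hlf probe sets tested had log2 values of 0.02, 0.16 and 0.04 in the antibiotic comparison, with intervals that ran from -0.43 at the lowest to 0.57 at the highest. Nfil3 read 285.6, 195.1 and 136.4 in antibiotic-treated livers, against 245.0, 175.9 and 230.3 in untreated livers (log2 -0.12, 95% interval -0.70 to 0.47). Bhlhe40 read 146.1, 126.4 and 111.7 in antibiotic-treated livers, against 89.9, 132.2 and 157.8 in untreated livers (log2 0.04, 95% interval -0.57 to 0.64). For Nfil3 the untreated livers lay within the range of the antibiotic-treated ones, and for Bhlhe40 the reverse held.

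The difference between the comparisons was tested as the germ-free change minus the antibiotic change. It passed for 3 of the 9 probe sets, each higher in the germ-free comparison, where 5.03% of all probe sets passed, 2.47% higher and 2.56% lower. At an unadjusted p under 0.05 there were 4 of the 9, against 20.0% of all. It was 1.55 ± 0.33 for Dbp (limma adjusted p = 0.0171), 1.52 ± 0.22 for Tef probe set 1385374_at (0.00165) and 0.92 ± 0.24 for 1390819_at (0.0431). The call for 1390819_at was lost in 14 of 23 alternatives. That for Dbp was lost with the beta-actin ratio as a covariate (0.99, limma adjusted p = 0.126), and its size was 0.98 with an offset of 64. For Noct the difference was 2.09 ± 0.58 and missed the threshold (limma adjusted p = 0.0553). For Hlf, Nfil3 and Bhlhe40 no adjusted p of the difference was under 0.405. The comparisons come from different strains, and strain cannot be told apart from the germ-free state and the antibiotics in this difference. The beta-actin ratio also averaged higher in both Sprague Dawley groups than in both Han Wistar groups.

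Germ-free animals kept a similar order across the activators, while those of the other groups did so less. Over the 6 tested probe sets of Dbp, Tef and Hlf, germ-free animal 3 was highest in 5 and animal 4 lowest in 6. Conventional animal 6 and untreated animal 2 were each highest in 5 of 6, while no antibiotic-treated animal was highest in more than 3. Untreated animal 3 was lowest in 4 of 6 but highest for Tef probe set 1390819_at. Conventional animal 8 was lowest in 2 and highest for Tef probe set 1385374_at. Of the 6 probe sets 3 are of Hlf. In germ-free animal 3, Nfil3 was at its lowest value of the group, 117.5, and Noct at its highest, 135.4. In untreated animal 2, Hlf and Dbp were highest and Nfil3 lowest of its group, at 175.9. Not every animal showed this pairing. Conventional animal 7, lowest in 4 of the 6 activator probe sets, was also lowest of its group for Nfil3, at 103.4. Nfil3 was in the middle of its group in conventional animal 6 (173.1) and in germ-free animal 4 (144.2). These orders are of 3 animals each, rest on probe sets that share genes and arrays, and were not tested.

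Genes of the clock around the members moved in both directions in germ-free livers. The core clock genes with a reported D-box numbered 6 among those tested, and 3 rose, 1 fell and 2 missed the threshold. Over all probe sets tested 6.86% were called higher and 5.39% lower. The median of the 6 was 0.96, against 0.054 over all probe sets. Nr1d1, a repressor of Bmal1 and Nfil3, averaged 180.0 ± 45.5 in germ-free livers, against 21.1 ± 6.79 in conventional ones (log2 2.39 ± 0.35). Its relative Nr1d2 rose by 1.80 ± 0.24 and Per2, a clock repressor, by 1.58 ± 0.37. Cry1, another repressor, averaged 60.0 ± 12.8 in germ-free livers, against 171.0 ± 18.8 in conventional ones (log2 -1.31 ± 0.18). Per1 (0.35) and Rora (-0.43) did not pass, and Per3, under the filter, read 7.5 to 35.4 in germ-free livers, against 1.0 to 2.0 in conventional livers. Of the 7 tested genes of the positive limb and E-box partners, 1 fell and 6 did not pass (median -0.01). The one that fell was Bmal1, the E-box activator, with 79.5 ± 29.1 in germ-free livers, against 131.0 ± 15.0 in conventional ones (log2 -0.66 ± 0.18, limma adjusted p = 0.0284). Cry2 had a log2 value of 0.36 in its brightest probe set and 0.78 in the other (limma adjusted p = 0.0253), and Csnk1d had 0.14, Usp2 -0.20 and Csnk1e -0.05. Bhlhe41, the relative of Bhlhe40, lay under the filter with 8.8 to 11.3 in germ-free livers, against 3.4 to 6.3 in conventional livers. A dimmer probe set of Clock, picked out after its values were seen, had -0.50 (limma adjusted p = 0.00659), against -0.01 in the brightest and 0.23 (0.29) in the other one tested. In antibiotic-treated livers 0 of the 6 and 0 of the 7 genes were called by limma, and 0 had an unadjusted p under 0.05. Over all probe sets tested these shares were 0.0193% and 9.97%.

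Liver genes that depend on the PAR bZIP factors in mouse, or are rat relatives of such genes, moved mostly downward where they passed. In germ-free livers 6.86% of all probe sets tested were called higher and 5.39% lower. Of the 23 listed genes tested there, 2 rose, 10 fell and 11 missed the threshold (median -0.01). The 5 with the smallest p all fell. These were the acyl-CoA thioesterase genes Acot4 (-1.89 ± 0.22), Acot2 (-1.61 ± 0.26) and Acot1 (-3.36 ± 0.54), the fatty acid hydroxylase gene Cyp4a3 (-1.23 ± 0.16) and the carboxylesterase gene Ces2c (-1.62 ± 0.23). Acot4 averaged 303.0 ± 98.4 in germ-free and 1162 ± 348 in conventional livers. The other 5 that fell had log2 values from -1.55 to -0.48 in their brightest probe sets. Por, at -0.48, had -0.22 (limma adjusted p = 0.36) in its other tested probe set. The dimmer tested probe sets of Acot2 had -0.92 (0.0699) and -1.42 (0.0301), and that of Cpt1a had -0.55 (0.0494). Those that rose were Cyp7a1 (1.79 ± 0.52, limma adjusted p = 0.0398) and, picked out after its values were seen, the arachidonic acid epoxygenase gene Cyp2c23 (0.46, 0.0153). The Acot and Cyp4a genes are also known targets of the fatty acid receptor PPAR-alpha, and several of the 23 belong to families of near-identical copies that a probe set may not separate. In antibiotic-treated livers 0 of 23 were called by limma, while 12 had an unadjusted p under 0.05 (median 0.25). Over all probe sets tested these shares were 0.0193% and 9.97%.

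**Figure D4:**
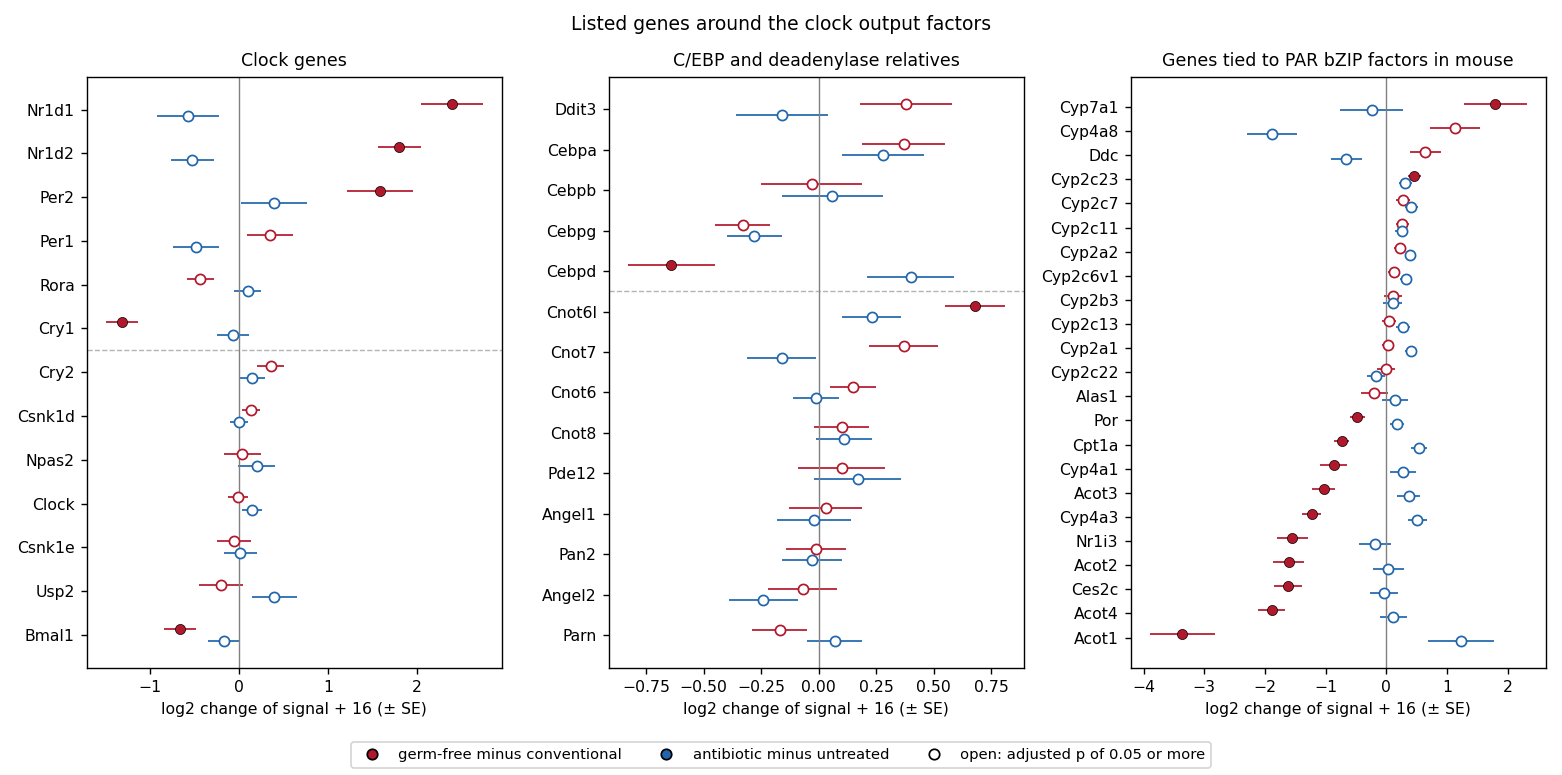
Log2 change of signal + 16 (± SE) of the tested genes of 5 lists around the members, germ-free minus conventional in red and antibiotic minus untreated in blue. Filled points have a limma adjusted p under 0.05 and open points do not. The dashed lines part D-box clock genes from their E-box partners, and C/EBP relatives from the deadenylases and phosphatases listed beside Noct. Filled points appear in the germ-free comparison and not in the antibiotic one, and Nr1d1 (2.39) and Acot1 (-3.36) lie farthest from 0.

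Among the C/EBP factors, leucine zipper proteins of liver whose sites overlap the D-box, Cebpd fell and the other 4 of 5 tested did not pass. In germ-free livers 6.86% of all probe sets tested were called higher and 5.39% lower. Cebpd averaged 18.5 ± 2.46 in germ-free livers, against 38.7 ± 12.3 in conventional ones (log2 -0.64 ± 0.19, limma adjusted p = 0.0386). Cebpa had a log2 value of 0.37 in its brightest probe set and 0.72 in its dimmest tested one (limma adjusted p = 0.0251), and Cebpb had -0.03, Cebpg -0.33 and Ddit3 0.38. Of the 9 deadenylase and phosphatase genes listed beside Noct, not all of 1 protein family, 1 rose and 8 did not pass (median 0.10). That was Cnot6l, a deadenylase of the CCR4-NOT complex, with 140.0 ± 20.4 in germ-free livers, against 81.0 ± 4.39 in conventional ones (log2 0.68 ± 0.13). Cnot7 (0.37), Cnot8 (0.10) and Parn (-0.17) did not pass, and Cnot6 had 0.15 in its brightest probe set with 0.66 (limma adjusted p = 0.0127) and -0.08 (0.783) in the other 2 tested. In antibiotic-treated livers 0 genes of either list were called by limma, against 0.0193% of all probe sets tested. At an unadjusted p under 0.05 there were 1 C/EBP gene and 0 genes listed beside Noct, against 9.97% of all.

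Genes with the pattern most like a member were found by the root mean square difference of log2 values over the 12 arrays, each strain's control mean being subtracted first. Among 9299 other genes, Pyroxd2 (0.30), Mug1 (0.35) and Xpnpep2 (0.37) were nearest to Dbp, with log2 changes of 1.45, 1.53 and 1.90 in germ-free livers. Nearest to Tef were Pogk (0.13), Polr2a (0.14) and Adam15 (0.16), with changes of 0.65, 0.77 and 0.65. Nearest to Noct were Cyp7a1 (0.37), whose enzyme starts the main route from cholesterol to bile acids, Sult1c2 (0.38) and Rasgef1b (0.40), with changes of 1.79, 1.75 and 1.61. No other member came as near: the distance between Dbp and Tef was 0.67, between Dbp and Noct 0.66 and between Tef and Hlf 0.40. The nearest genes were picked from 9299 by these same values, whereas the members are a few fixed genes. Their smaller distances and similar changes therefore follow from the choice and do not show that the members are unlike each other.

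Array quality and the markers of other cells were set beside these results. Within a group, pairs of arrays had correlations of 0.974 to 0.985 over the probe sets. The 3' to 5' signal ratio of the beta-actin control, which rises as RNA degrades, averaged 4.39 ± 0.762 over the germ-free livers, against 5.37 ± 0.839 over the conventional livers (SD, n = 3 each). An exact permutation test gave a two-sided p of 0.2, with 0.1 the least that 3 against 3 can give. It averaged 2.73 ± 0.131 over antibiotic-treated livers, against 2.55 ± 0.123 over untreated livers (exact permutation p = 0.2). The same ratio of the GAPDH control was 1.52 ± 0.286 in germ-free and 1.63 ± 0.164 in conventional livers (exact permutation p = 0.6), and 1.41 ± 0.0796 in antibiotic-treated and 1.34 ± 0.0695 in untreated livers (0.5). With the beta-actin ratio as a covariate Dbp changed by 1.40 (limma adjusted p = 0.00376) and Tef probe set 1385374_at by 1.15 (0.00479), while Tef probe set 1390819_at, at 0.65 (0.0998), and Noct, at 1.90 (0.0535), missed the threshold. The defining genes of hepatocytes were bright in every group. In germ-free livers 1 of 6 rose, namely Tat (log2 1.74 ± 0.14, limma adjusted p = 9.73e-06). Alb, Apoa1, Ttr, Serpina1 and Cps1 did not pass, with log2 values of 0.06 to 0.29. Of the endothelial markers 5 of 6 rose, where 6.86% of all probe sets tested did. The summed endothelial signal was 1279 to 1803 in germ-free and 697.2 to 879.5 in conventional livers, and the summed hepatocyte signal 39533 to 44741 in germ-free and 34355 to 37504 in conventional livers. In the Han Wistar comparison 0 of 6 hepatocyte markers were called by limma but 6 had an unadjusted p under 0.05, against 9.97% of all probe sets tested. The sum of these markers was 29046 to 35472 in antibiotic-treated and 22448 to 26452 in untreated livers. Of 5 macrophage markers in that comparison 0 were called by limma and 3 had an unadjusted p under 0.05 (median log2 0.56). Their sums, 955.0 to 1332 in antibiotic-treated and 654.6 to 967.4 in untreated livers, overlapped. For the 6 endothelial, 7 stellate and 3 bile duct markers the unadjusted counts were 0, 1 and 0. In germ-free livers, of 5 macrophage markers 1 fell (Clec4f), with sums of 905.5 to 1184 in germ-free and 1141 to 1626 in conventional livers. Of 7 stellate and 3 bile duct markers 0 passed, although the stellate sums, 1747 to 2046 in germ-free and 2073 to 2422 in conventional livers, did not overlap. Most of each stellate sum came from Col3a1, whose mean was 1321 without microbes and 1675 with them (a change of -0.34). The other stellate markers moved in both directions: Lrat 0.29, Reln 0.26, Acta2 0.08, Col1a1 0.06, Des -0.04 and Pdgfrb -0.16. With a list median of 0.06, the gap in the sums does not show a lower signal across the stellate markers. All 5 lymphocyte markers lay under the filter, with sums of 31.2 to 62.5 in germ-free and 40.8 to 58.3 in conventional livers. The part of these cells in the members' changes was not tested, and in whole liver fewer cells of a type and less RNA per cell cannot be told apart.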

How the data were processed

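Liver RNA from 12 rats (4 groups, 3 animals each) was measured on 1-colour Affymetrix arrays, 1 per animal, from 5 ug of total RNA, per the labels' protocols. The authors deposited linear MAS5 signal intensity values, per the submitters' processing notes. The deposited intensity values have a trimmed mean of 100 on every array (2% off each end), so no further scaling was applied. The detection calls were not used here. Of 31042 probe sets that are no controls, 20826 had 1 gene symbol, 436 several and 9780 none. Symbols were updated through gene IDs and accessions.

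Values were taken as log2(signal + 16), an offset that damps noise in dim probe sets. Probe sets with a mean signal of at least 19.67, the median, were kept (15523). limma 3.58.1 in R 4.3.3 was fitted over all 12 arrays with 4 group means and an intensity trend. The contrasts set germ-free against conventional livers and antibiotic-treated against untreated livers, and the last one took their difference. P-values were two-sided and Benjamini-Hochberg adjusted over all tested probe sets, and called under 0.05. Precision is limited by the number of arrays: the median standard error of a log2 change was 0.152 with 8 residual degrees of freedom. The test was checked on simulated data.

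Named are all 6 members in every probe set. Also named are the 3 genes most like each member whose brightest probe set passed, up to 5 genes with the smallest p in each list, and Bmal1, Per1, Per2, Per3, Nr1d1, Cry1 and Bhlhe41. A list gene is represented by its brightest probe set. The members and lists were chosen with earlier results of these data known, so they are not independent evidence. Alternatives were the offset, filter, scaling, variance model, array weights, probe set summary, arrays fitted, the actin ratio as a covariate, a stricter call and leaving out each animal.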

Additional observations from a re-analysis of the deposited data

Results flagged for a closer look

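For 3 member probe sets the change in germ-free livers differed from the change in antibiotic-treated livers by a test of that difference. The difference was 1.55 for Dbp (log2 1.81 in the germ-free comparison and 0.26 in the antibiotic comparison; limma adjusted p = 0.0171), and this was lost with the beta-actin ratio as a covariate (0.99, 0.126). It was 1.52 for Tef probe set 1385374_at (1.15 and -0.37; limma adjusted p = 0.00165) and 0.92 for Tef probe set 1390819_at (0.71 and -0.21; limma adjusted p = 0.0431), the last of which was lost in 14 of 23 alternatives. Strain differs and sampling hour may differ between the comparisons, and both cannot be told apart from the treatments. The beta-actin ratio also averaged higher in the Sprague Dawley groups (4.39 germ-free, 5.37 conventional) than in the Han Wistar groups (2.73 antibiotic-treated, 2.55 untreated). That gap between the strains was not tested.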

How the results depend on the processing

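In the germ-free comparison Dbp (24 alternatives) and Tef 1385374_at (22) kept their direction and their call in every alternative run. Noct kept its call in 23 of 24 and lost it with the actin ratio as a covariate, at 1.90. Tef 1390819_at lost it in 3 of 24, with the actin ratio at 0.65 and without germ-free animal 3 or conventional animal 7, with a range of 0.63 to 0.81 over animals left out. The members called numbered 2 with the actin ratio and 0 with a filter at the 75th percentile of signal, which left only 4 member probe sets, and 3 to 5 with an animal left out. For the difference these counts were 1 with the actin ratio, 0 with that filter and 2 to 3 with an animal left out.

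Values near 0 changed sign. With array weights Nfil3 had 0.09 in the germ-free comparison, and Hlf 1386641_at -0.06 and Hlf 1374709_at -0.02 in the antibiotic comparison. Leaving out animals gave -0.33 to 0.17 for Nfil3 in the germ-free comparison. In the antibiotic comparison it gave -0.25 to 0.22 and -0.14 to 0.20 for these Hlf probe sets, -0.37 to 0.13 for Nfil3, -0.58 to 0.49 for Noct and -0.16 to 0.19 for Bhlhe40. In the difference it gave -0.01 to 0.33 for Hlf 1374709_at and -0.21 to 0.31 for Nfil3. The difference for Dbp missed the threshold with the actin ratio (0.99, limma adjusted p = 0.126). Except where stated, the cause was not tested.

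Over all probe sets the germ-free count of 1901 was 855 with the actin ratio, 1006 without germ-free animal 3, 1226 and 1273 with 1 value per gene, which tests fewer features, and 368 with a log2 change of at least 1. The antibiotic count of 3 ran from 1 to 25, highest with array weights. The difference count of 781 was 300 with the actin ratio, 435 without untreated animal 2, 438 without germ-free animal 3, 496 with no filter and 1229 with array weights, and split 383 higher and 398 lower, or 295 and 469 after median centring. No paired analysis was possible because the groups compared share no animal numbers. Signals near the filter value, as for Dbp and Noct in their lowest groups, limit how well a fold change is known.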
